A study of Rattus norvegicus with 9 samples.

Results

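The genes described here are the oncofetal RNA-binding protein genes Igf2bp1, Igf2bp2, Igf2bp3 and Lin28a and the high mobility group A genes Hmga1 and Hmga2. They were found by gene symbol in the deposited count table, where 5 of the 6 had a row among 17337 genes. Igf2bp3 was not analysed here. Counts were measured by RNA sequencing in cardiac fibroblasts, which make the matrix of the heart's connective tissue. The cells came from Sprague Dawley rats of 3 ages, with 3 libraries each: fetal at embryonic day 18 (E18), neonatal at day 1 after birth (P1) and adult at 7 weeks. All 9 were primary cells at passage 0, grown to confluency in flasks with 10% serum and ascorbic acid, and the labels name no sort, no genetic change and no treatment that differs between ages. The labels do not say that the 3 libraries of an age came from separate cultures or animals, so the p-values measure the spread between these libraries, which may be technical.

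The IGF2BP proteins bind messenger RNAs and control their stability, transport and translation, and they are known as fetal proteins that many tumours express again. LIN28A binds the precursors of the let-7 microRNAs and blocks their maturation. HMGA1 and HMGA2 are small chromatin proteins whose AT-hooks bind the minor groove of AT-rich DNA, and both are abundant in embryonic tissues. Mature let-7 microRNAs in turn repress several of these genes, with Hmga2, Lin28a and the Igf2bp transcripts among the well-known targets, so the group is often described as a developmental timing circuit.

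The mature let-7 sequences show what joins the circuit, and 3 are printed because their hairpin genes had the most counts of the family here. The sequences are those of RefSeq (rat assembly GRCr8), 5′ to 3′, with the seed (bases 2 to 8) in capitals. All 8 let-7 names found in that table share the seed.
rno-let-7b-5p: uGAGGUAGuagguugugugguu
rno-let-7c-5p: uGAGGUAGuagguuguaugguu
rno-let-7i-5p: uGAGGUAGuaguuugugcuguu

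Of the 5 genes with a row, 4 had enough counts to be tested between ages, and Lin28a did not. Library totals ran from 13392825 to 22850491 assigned counts. Levels of 1 gene across libraries are given in CPM, counts per 1000000 assigned counts after scaling by TMM (a normalization for library composition). Tests are edgeR's quasi-likelihood tests with Benjamini-Hochberg adjustment over the 11337 genes tested, with adjusted p under 0.05 as the threshold. All 3 pairs of ages share libraries, so their results are not independent of each other.

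A few facts about the libraries bear on every value below. Fetal replicate 3 stood apart from the other fetal libraries: the chi-square per degree of freedom over genes was 90 and 97.3 against them, and 3.94 between those. For adult replicate 1 it was 25.8 and 43 against the other adult libraries, and 6.76 between those. Between neonatal libraries it was 2.05 to 2.76. In fetal replicate 3 the summed level of 10 fibroblast markers, mostly Col1a1 and Col3a1, was 26490 CPM, against 53250 and 50100 in fetal replicates 1 and 2. Its summed level of 8 lung epithelial markers was 229.3 CPM, against 3.46 and 4.15. Of that sum, Cdh1 was 113.0, Cldn18 58.5, Epcam 47.0 and Nkx2-1 9.83 CPM. The other markers of that list, Sftpa1, Sftpb, Sftpc and Sftpd, were each at most 0.744 CPM. All 10 fibroblast markers were above 3 counts in at least 1 library of every age, though Col1a2, a chain of type I collagen, was listed at 0.0531 to 0.976 CPM in all 9 libraries. The summed level of 12 cardiomyocyte markers was 7361 to 11190 CPM in fetal, 5284 to 5839 in neonatal and 305 to 320 in adult libraries. In the adult sum Tnnt2 alone was at 303 to 316 CPM, and 5 of the 12 markers had at most 3 counts in every adult library. The sum of 12 macrophage markers was 15.04 to 74.1, 165 to 181 and 4562 to 6234 CPM at the same ages. Both sets of markers moved with age in the same libraries as the genes below, and their part in the results was not tested. In such bulk samples, fewer cells of a type and less RNA per cell cannot be told apart.

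All 4 tested genes were highest in fetal cells and fell by the neonatal age. No adult library had more than 3 counts of Igf2bp1 or Hmga2, Igf2bp2 kept a low adult level, and Hmga1 showed no further difference between neonatal and adult cells.

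**Figure D1:**
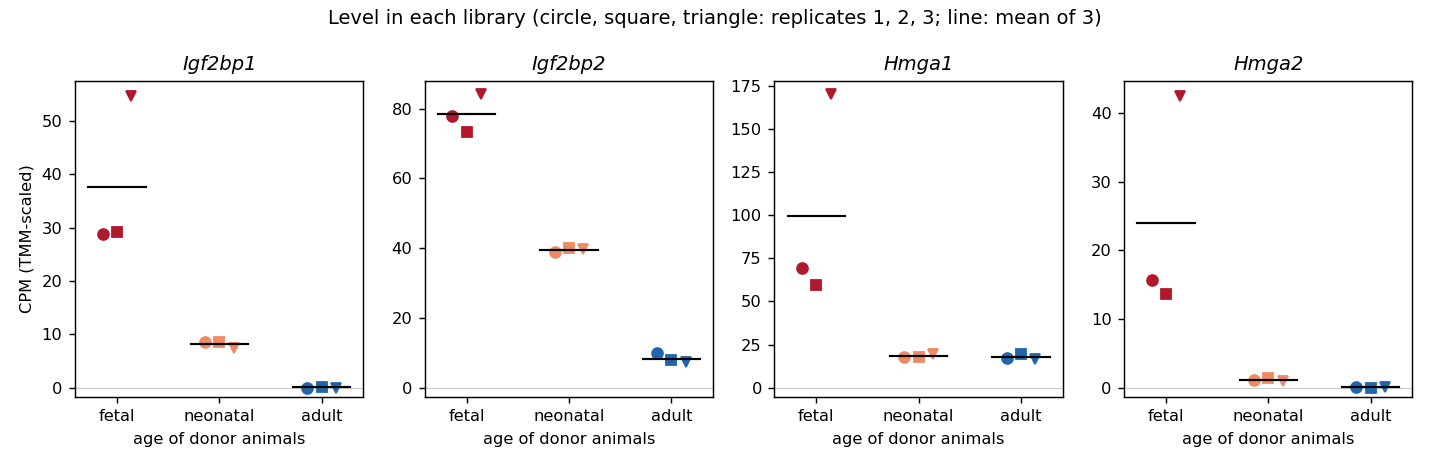
Level of each tested gene in each of the 9 libraries by age, as TMM-scaled CPM on linear axes that differ between panels; points are libraries (circle, square and triangle for replicates 1, 2 and 3) and lines are means of 3 libraries. Fetal libraries lie above the neonatal and adult ones for all 4 genes, with fetal replicate 3 as the highest fetal point of each, and Hmga1 alone has overlapping neonatal and adult points.

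Igf2bp1 (rn6 chromosome 10, 83780203 to 83822996, minus strand, 15 exons and 2105 exon bases) encodes the IGF2BP member that binds, among others, the beta-actin, Myc and CD44 messenger RNAs. It had 532, 664 and 1031 counts in the fetal libraries, 155, 184 and 115 in the neonatal and 0, 2 and 0 in the adult libraries. Expressed in CPM these were 28.7, 29.3 and 54.8, then 8.53, 8.55 and 7.44, then 0, 0.145 and 0. No 2 ages overlapped, and the adult libraries held almost no reads of the gene. The mean fell from 37.6 ± 14.9 CPM (SD, n = 3) in fetal to 8.18 ± 0.633 (n = 3) in neonatal libraries, which is -2.20 on the log2 scale (SE 0.278, edgeR adjusted p = 0.000545). The gene was kept through its fetal and neonatal libraries, so no test against adult cells is read. Adult cells were at least 168-fold lower than fetal cells and at least 36.6-fold lower than neonatal cells. Both bounds set the adult libraries at the floor of 3 counts per library and cover counting error only. The bound against fetal cells was 130-fold when fetal replicate 3 was left out.

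Igf2bp2 (chromosome 11, 82466071 to 82621105, plus strand, 16 exons and 3629 exon bases) encodes the family member that is most widely kept in adult tissues. Its fetal libraries had 77.8, 73.2 and 84.1 CPM, its neonatal libraries 39.0, 40.0 and 39.8, and its adult libraries 9.95, 7.80 and 7.26. The groups were tight and did not overlap, and fetal replicate 3 was close to the other fetal libraries. The neonatal mean was 50.5% of the fetal mean and the adult mean 10.6% of it. The log2 fold change was -0.98 from fetal to neonatal cells (SE 0.102, edgeR adjusted p = 0.000171). It was -3.23 from fetal to adult cells (SE 0.116, edgeR adjusted p = 3.02e-08) and -2.25 from neonatal to adult cells (SE 0.115, edgeR adjusted p = 4.29e-07).

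Hmga1 (chromosome 20, 7136007 to 7138980, plus strand, 4 exons) is listed with only 324 exon bases, a stretch of coding length, and its counts come from that stretch alone. RefSeq's rat list names 4 further Hmga1 copies, none with a row in the count table. Reads that match several places are left out by the counting program's default, so its level is uncertain. The gene had 69.2, 59.7 and 170.2 CPM in the fetal libraries, 17.6, 17.7 and 19.4 in the neonatal and 17.4, 19.7 and 16.6 in the adult libraries. Fetal replicate 3 was far above the other fetal libraries, and the neonatal and adult libraries overlapped. Hmga1 fell from 99.7 ± 61.2 CPM (SD, n = 3) in fetal to 18.2 ± 0.997 (n = 3) in neonatal cells, which is -2.45 on the log2 scale (SE 0.367, edgeR adjusted p = 0.00152). Adult cells had 17.9 ± 1.604 CPM (n = 3), which against fetal cells is -2.48 on the log2 scale (SE 0.372, edgeR adjusted p = 0.000314). Between neonatal and adult cells the log2 difference was -0.03, with a 95% interval of -0.88 to 0.82 (edgeR adjusted p = 0.955), which spans changes in both directions. When fetal replicate 3 was left out, the log2 fold changes against fetal cells were -1.82 for neonatal and -1.85 for adult cells.

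Hmga2 (chromosome 7, 65159944 to 65275408, minus strand, 5 exons and 805 exon bases) is the classic let-7 target of the group, although the last exon of its model here is only 111 bases long. It had 290, 310 and 800 counts in the fetal libraries, 21, 31 and 14 in the neonatal and 2, 0 and 1 in the adult libraries. As CPM these were 15.7, 13.7 and 42.5, then 1.16, 1.44 and 0.906, then 0.153, 0 and 0.0749. The 3 ages did not overlap, and fetal replicate 3 was again the highest library. The mean fell from 23.9 ± 16.1 CPM (SD, n = 3) to 1.17 ± 0.267 (n = 3) by the neonatal age, which is -4.33 on the log2 scale (SE 0.507, edgeR adjusted p = 0.000383). It was -3.62 without fetal replicate 3. Adult cells were at least 107-fold lower than fetal cells, or at least 65.6-fold without fetal replicate 3. They were at least 5.22-fold lower than neonatal cells. No test against adult cells is read, for the same reason as for Igf2bp1.

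Lin28a (chromosome 5, 152230343 to 152247332, minus strand, 4 exons and 3520 exon bases) had 1 count in fetal replicate 3, 1 in adult replicate 1 and 0 in the other 7 libraries. A count of 0 allows a level of up to 0.132 to 0.230 CPM, depending on the library, and covers counting error only. No age difference was detectable at this depth.

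In neonatal against fetal cells 4 of the 4 tested genes were called lower, beside 18.0% of all genes tested (18.3% were called higher). In adult against fetal cells it was 4 of 4 beside 35.5% (34.9% higher), and in adult against neonatal cells 3 of 4 beside 31.8% (31.6% higher). Igf2bp1 and Hmga2 entered the tests through their fetal and neonatal libraries, so their adult calls had to follow and nothing is read from those counts. The same 3 numbers had no overlap between libraries, where 28.1%, 35.8% and 38.5% of all genes were lower in that way. Igf2bp2 was among the 906 genes (7.99%) called lower in all 3 pairs. So were Igf2bp1 and Hmga2, whose adult calls had to follow. Leaving out fetal replicate 3 gave the same 3 counts of genes called lower. The median log2 fold change over all genes was -0.01 in each pair.

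**Figure D2:**
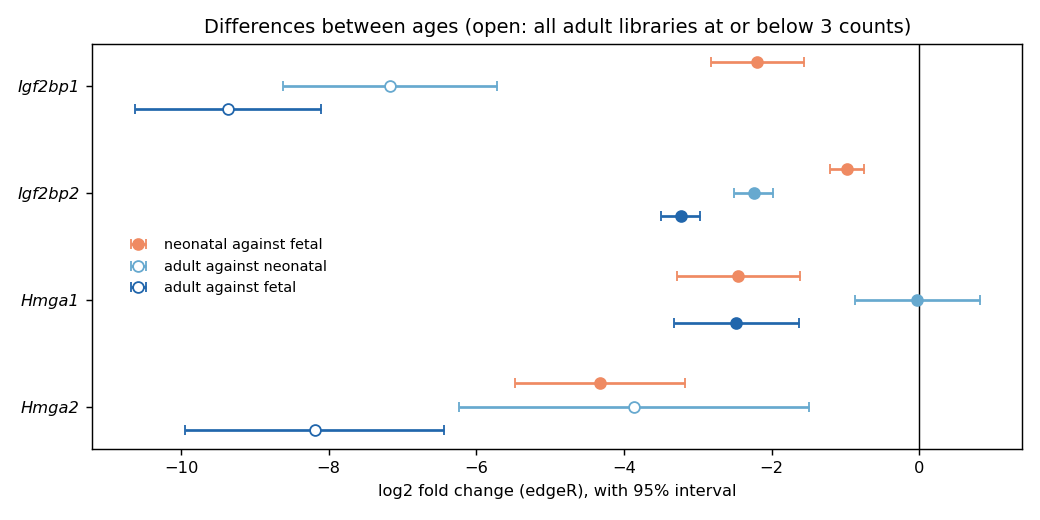
Fitted log2 fold change of each tested gene in the 3 pairs of ages, with 95% intervals; open points have all adult libraries at or below 3 counts, where the fitted value depends on a small prior and the text gives bounds. Hmga1 lies at -0.03 between adult and neonatal cells with an interval across 0, and the other points lie below 0.

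The size of the decrease in the earlier and in the later step between ages was compared within each gene. The later step covers a much longer span of time than the earlier one. A larger decrease in it need not be a faster one, and rates were not compared. The step from neonatal to adult was compared with the step from fetal to neonatal in the same fit, and over all genes the second step was the higher of both in 19.4% and the lower in 23.0%. Igf2bp2 fell more in the second step, by a log2 difference of -1.26 (SE 0.180, edgeR adjusted p = 0.000731). For Igf2bp1 no test is read, because its adult libraries had 0, 2 and 0 counts. Its neonatal level was 4.58-fold below the fetal one and its adult level at least 36.6-fold below the neonatal one. The fitted difference between the steps was -4.97 and moved to -7.99 without adult replicate 2. Hmga1 fell more in the first step (log2 difference 2.43, SE 0.657, edgeR adjusted p = 0.0174). The Hmga1 difference missed the threshold when any single neonatal library was left out (edgeR adjusted p between 0.0548 and 0.0686). It was 1.79 when fetal replicate 3 was left out (edgeR adjusted p = 9.48e-06). For Hmga2 no test is read either, because its adult libraries had 2, 0 and 1 counts. Its fitted difference between the steps was 0.46 (SE 2.31), with an interval of -4.77 to 5.70. That interval spans large differences in both directions, so the steps of Hmga2 can be called neither equal nor different.

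Levels of different genes were compared per length, as TPM (counts per kilobase of exon scaled to 1000000 over all 17337 genes). In fetal cells the level of Hmga1 was 709.8 ± 461.5 TPM (SD, n = 3), above 98.5% of tested genes. Hmga2 had 68.7 ± 48.7 TPM, Igf2bp2 49.2 ± 4.93 and Igf2bp1 41.0 ± 17.8, and the fetal libraries of these 3 genes overlapped. Without fetal replicate 3 the fetal means were 443.8 TPM for Hmga1, 46.4 for Igf2bp2, 40.6 for Hmga2 and 30.8 for Igf2bp1, so that Hmga2 was then below Igf2bp2. By the adult age Hmga1 was still at 101.8 ± 10.8 TPM, above 83.8% of tested genes, while Igf2bp2 was at 4.23 ± 0.633. The short gene model of Hmga1 makes its per-length level uncertain. The last exons of the Igf2bp1 and Hmga2 models are also short, at 242 and 111 bases, beside 1864 bases for Igf2bp2. Per-length levels and shares depend on these models.

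Within the IGF2BP pair Igf2bp1 made up 38.9%, 40.8% and 52.9% of the per-length total in the fetal libraries. Its share was 27.4%, 27.0% and 24.4% in the neonatal libraries and 0%, 3.09% and 0% in the adult libraries. The balance thus moved to Igf2bp2, with no overlap between ages. Within the HMGA pair Hmga2 made up 8.35%, 8.44% and 9.13% of the fetal total, 2.58%, 3.17% and 1.85% of the neonatal and 0.353%, 0% and 0.182% of the adult total. The fetal shares of Hmga2 lay within a narrow range although fetal replicate 3 had the highest level of both genes. With raw counts in place of per-length values the Igf2bp2 share was 68.33% in fetal and 82.88% in neonatal cells, and that of Hmga1 80.98%, 93.94% and 99.56%.

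**Figure D3:**
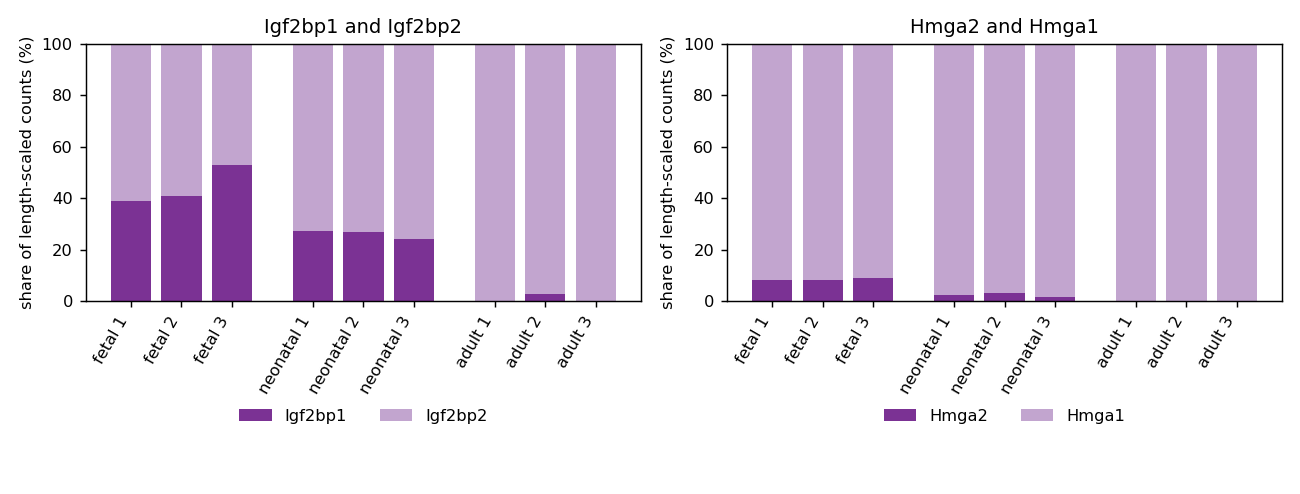
Share of length-scaled counts taken by each gene of the IGF2BP pair and of the HMGA pair in each library, in percent. Igf2bp1 takes 38.9% to 52.9% of its pair in fetal libraries and at most 3.09% in adult libraries, and Hmga2 takes at most 9.13% of its pair in any library.

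Fetal replicate 3 raised these genes to different degrees. Its level relative to the mean of the other fetal libraries was 2.90 times for Hmga2, 2.64 for Hmga1, 1.89 for Igf2bp1 and 1.11 for Igf2bp2. Of all tested genes, 2.92%, 3.29%, 6.06% and 33.99% had a difference at least as high, so Igf2bp2 was not set apart in that library. Mki67, a marker of dividing cells, was at 1.76 times, and the sums of 20 proliferation markers at 1.48 and of macrophage markers at 4.74 times. The sum of fibroblast markers was at 0.513 times and that of lung epithelial markers at 60.3 times. The fibroblast sum was mostly Col1a1 and Col3a1. Pdgfra and Vim were higher there than in both other fetal libraries, and the remaining fibroblast markers were lower. The part of all these markers in the high values of the library was not tested.

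**Figure D4:**
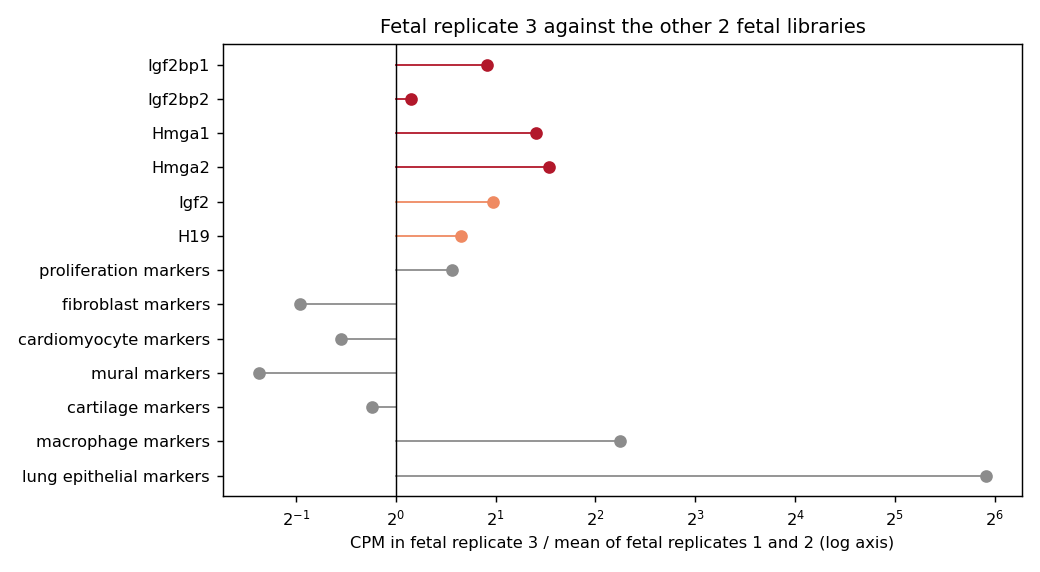
Level in fetal replicate 3 divided by the mean of fetal replicates 1 and 2, on a log2 axis, for the 4 tested genes (red), Igf2 and H19 (orange) and summed marker lists (grey). Hmga2 and Hmga1 lie at 2.90 and 2.64 times, Igf2bp2 at 1.11 times, and the sum of lung epithelial markers at 60.3 times.

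The let-7 hairpin genes had few counts, and they were looked at after their values were seen. These are reads on the hairpin rows of a long-RNA library and are not levels of the mature microRNAs printed above. Of 11 rows 5 had any count, and their sum was 0.0540 to 0.372 CPM in fetal, 0.385 to 0.604 in neonatal and 2.60 to 3.52 in adult libraries. The adult libraries were the highest of all. Mirlet7b (chromosome 7, 126590627 to 126590711) was the only row with enough counts to be tested, at 1, 2 and 0 counts in fetal, 2, 4 and 4 in neonatal and 22, 21 and 15 in adult libraries. The row was kept through its adult libraries alone, so no test is read. Its adult level was at least 9.53-fold above the fetal one. Mirlet7c-2 (chromosome 7, 126590212 to 126590306) lies beside it and had 0, 3 and 0, then 2, 7 and 3, then 8, 13 and 25 counts.

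The bases before the transcription start are printed for Igf2bp2, Hmga1 and Hmga2 because these are tested genes with an entry in the RefSeq promoter table. They are 250 bases upstream of the start in RefSeq (GRCr8, whose coordinates differ from those of rn6), 5′ to 3′, with matches to the GC box GGGCGG on either strand in capitals. Promoters of 5 of the 6 listed genes were found.
Igf2bp2, chr11:92378658-92378907, plus strand: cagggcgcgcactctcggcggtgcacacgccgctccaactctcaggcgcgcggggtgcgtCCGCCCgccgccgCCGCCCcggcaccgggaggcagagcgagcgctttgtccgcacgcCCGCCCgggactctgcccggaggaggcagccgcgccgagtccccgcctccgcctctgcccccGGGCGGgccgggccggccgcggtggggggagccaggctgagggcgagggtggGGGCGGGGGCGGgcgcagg
Hmga1, chr20:5613258-5613507, plus strand: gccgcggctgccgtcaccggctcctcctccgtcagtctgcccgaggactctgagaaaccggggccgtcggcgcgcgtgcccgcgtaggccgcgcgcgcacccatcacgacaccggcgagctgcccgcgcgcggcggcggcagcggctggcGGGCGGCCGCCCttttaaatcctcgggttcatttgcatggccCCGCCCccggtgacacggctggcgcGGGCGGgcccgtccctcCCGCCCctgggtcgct
Hmga2, chr7:57880342-57880591, minus strand: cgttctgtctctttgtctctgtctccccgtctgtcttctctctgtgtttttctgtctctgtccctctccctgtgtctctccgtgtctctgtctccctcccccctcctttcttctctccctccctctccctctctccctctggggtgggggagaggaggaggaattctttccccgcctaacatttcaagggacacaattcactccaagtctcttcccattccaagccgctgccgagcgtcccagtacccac

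The Igf2bp2 stretch held 6 GC box matches, that of Hmga1 held 5 and that of Hmga2 held 0. At least 1 match was present in 30.5% of all 33469 promoters of the same length. Their GC content was 82.4%, 76.8% and 56.4%, beside a median of 51.2% over all promoters. None of the 3 held the CCAAT box (letters CCAAT, in 34.0% of all promoters). None held the TATA box (letters TATAAA, in 12.9%) or the E-box (letters CACGTG, in 5.59%), on either strand. A match describes the letters and is not a binding site.

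The genes with the most similar profile across the 9 libraries were found by the root mean square difference of log2 CPM after centring each gene, over 8943 genes with at least 10 CPM in their highest age. Among those nearest to Igf2bp1 were Smyd1, a muscle histone methyltransferase, and Bmp7, a bone morphogenetic protein, at differences of 0.378 and 0.404. Nearest to Igf2bp2 were Nav2 (0.150), Col27a1 (0.197) and Ednra, the endothelin receptor A (0.211). Nearest to Hmga1 were the WNT ligand gene Wnt5a (0.252), the desmosomal cadherin Dsc2 (0.396) and the WNT inhibitor Wif1 (0.404). Hmga2 was nearest to the embryonic myosin Myh3 (0.328), the phosphatase gene Ptprq (0.396) and Dlk1 (0.485). Without fetal replicate 3 the nearest genes included Smyd1 and Hspb3 for Igf2bp1, and the 3 nearest were Nav2, Tnnt2 and Ptprn for Igf2bp2. They were then Kif26b, Ttll12 and Wnt5a for Hmga1 and Myh3, Ptprq and Pgm5 for Hmga2. Ranked by Pearson correlation in place of the difference, 0 of the 3 were shared for any gene. The 9 points share 3 ages and each library's composition, and the values are descriptions. Between the 4 genes themselves the difference was smallest for Igf2bp2 and Hmga1 (0.979) and largest for Igf2bp1 and Hmga1 (2.69). Pearson correlation over the same 9 libraries ordered the pairs otherwise, with 0.988 for Igf2bp1 and Igf2bp2, 0.706 for Igf2bp2 and Hmga1 and 0.697 for Igf2bp1 and Hmga1.

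The genes around these proteins were counted in lists written with earlier results of these data known. Leaving out fetal replicate 3 also moved the counts over all genes. Adult against fetal cells then had 4298 genes higher and 4318 lower, against 3957 and 4030 with it. Neonatal against fetal cells had 2419 higher and 2260 lower, against 2074 and 2040. Of 14 tested genes of let-7 processing, 7 were lower and 1 higher in adult against fetal cells, where 35.5% of all genes were lower and 34.9% higher. The median log2 fold change of the list was -0.14 beside -0.01 over all genes. Without fetal replicate 3 the higher genes of that list numbered 3. Ago2, the slicing Argonaute, fell from 44.2 ± 5.67 CPM in fetal to 12.4 ± 2.13 in adult cells (SD, n = 3, edgeR adjusted p = 3.88e-06). Zcchc11, also named Tut4, the uridylyl transferase that LIN28 recruits to let-7 precursors, fell from 53.5 ± 0.797 to 19 ± 2.05 CPM (edgeR adjusted p = 4.02e-07). Dis3l2, the nuclease that degrades uridylated let-7 precursors, was at 19.1 ± 1.31 and 22.7 ± 3.93 CPM (edgeR adjusted p = 0.0945), and its log2 interval was -0.03 to 0.53. When fetal replicate 3 was left out, Dis3l2 passed the threshold (log2 0.30, edgeR adjusted p = 0.0469). Lin28b and Dicer1 were not analysed here.

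Of 24 tested genes reported as let-7 targets, 11 were lower and 3 higher in adult against fetal cells (35.5% and 34.9% of all genes), with a median of -0.45. Plagl1, an imprinted zinc-finger factor, was at 89.3, 91.7 and 129.4 CPM in fetal and 1.38, 0.867 and 0.449 in adult libraries. It was kept through its fetal and neonatal libraries, so no test is read. Ccnd2, cyclin D2, was at 196.7, 208.8 and 142.4 CPM in fetal and 31.2, 36.0 and 43.8 in adult libraries, without overlap (log2 fold change -2.30, edgeR adjusted p = 2.08e-06).

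Among 14 tested RNAs reported to be bound by IGF2BP proteins, 9 were lower and 2 higher in adult against fetal cells (35.5% and 34.9% of all genes), with a median of -0.42. H19 and Igf2, neighbours in an imprinted domain, had the largest decreases. H19 was at 607.7, 565.8 and 920.7 CPM in fetal and 0.536, 1.08 and 0.524 in adult libraries. It was kept through its fetal and neonatal libraries, so no test against adult cells is read. Igf2 had a log2 fold change of -7.18 (edgeR adjusted p = 2.44e-07). Other well-known clients went the other way. Cd44, a hyaluronan receptor, was at 133.2, 136.5 and 255.9 CPM in fetal and 404.7, 407.2 and 398.8 in adult libraries and rose by 1.204 on the log2 scale (SE 0.223, edgeR adjusted p = 0.00106). Myc had 77.0, 75.2 and 71.6 CPM in fetal, 54.4, 55.4 and 59.0 in neonatal and 208.7, 157.2 and 157.6 in adult libraries. It was lowest at the neonatal age (log2 fold change -0.41, edgeR adjusted p = 0.018) and highest in adult cells (1.23 against fetal cells, edgeR adjusted p = 7.68e-06). The neonatal decrease of Myc missed the threshold without neonatal replicate 1 (-0.38) or 2 (-0.39). Actb, beta-actin, was at 5801 ± 313.6 CPM in fetal and 6023 ± 240.0 in adult cells, and its log2 difference had a 95% interval of -0.14 to 0.25 (edgeR adjusted p = 0.591).

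Of 14 tested partners of the IGF2BP ribonucleoprotein, 11 were lower and 1 higher in adult against fetal cells (35.5% and 34.9% of all genes), with a median of -0.61. Hnrnpa1 and the helicase gene Dhx9 had log2 fold changes of -1.28 and -1.23 (edgeR adjusted p = 3.54e-06 and 3.74e-07). Of 14 writers, erasers and other readers of m6A, the RNA methylation mark that IGF2BP proteins read, 9 were lower and 1 higher beside the same shares of all genes, with a median of -0.34. Ythdf3 fell from 111.7 ± 7.38 to 54.2 ± 5.40 CPM (edgeR adjusted p = 4.22e-06) and Rbmx from 65.5 ± 9.70 to 33.8 ± 2.66 CPM (edgeR adjusted p = 4.83e-05). Without fetal replicate 3 the higher m6A genes numbered 2. Between neonatal and fetal cells 1 of these 14 m6A genes was lower and 0 were higher, or 1 higher without fetal replicate 3.

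For chromatin, 8 of 12 other tested high mobility group and linker genes were lower and 2 higher in adult against fetal cells (35.5% and 34.9% of all genes), with a median of -0.55. Tox3, an HMG-box factor, was at least 46.7-fold lower in adult than in fetal cells. It was kept through its fetal and neonatal libraries, so no test is read. The nucleosome-binding gene Hmgn2 had 46.0 ± 14.01 CPM in fetal, 26.1 ± 0.451 in neonatal and 26.0 ± 1.54 in adult cells. Hmgn2 was lower in neonatal than in fetal cells (edgeR adjusted p = 0.00754), and adult and neonatal libraries overlapped (edgeR adjusted p = 0.971). Of 14 genes reported as HMGA targets, 5 were higher and 4 lower, near the shares of all genes, with a median of -0.03. Cdkn2b, a cell-cycle inhibitor, fell by 2.30 on the log2 scale (edgeR adjusted p = 1.47e-08), while Plau, urokinase, rose by 2.42 (SE 0.553, edgeR adjusted p = 0.00381), or by 3.56 without fetal replicate 3. Without fetal replicate 3, in which Plau was at 4.66 times the other fetal libraries, 8 of the 14 were higher. Over all genes 4298 were then higher, against 3957 with it.

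Of 32 other tested RNA-binding protein genes known to change in development, 23 were lower and 7 higher in adult against fetal cells (35.5% and 34.9% of all genes), with a median of -0.73. Rbm20 and Rbm24 are splicing factors of heart and skeletal muscle. Rbm20 fell by 5.08 on the log2 scale (edgeR adjusted p = 6.94e-09). Rbm24 was at 15.1, 17.5 and 23.5 CPM in fetal and 0.612, 1.08 and 0.674 in adult libraries. It was kept through its fetal and neonatal libraries, so no test is read. The cardiomyocyte markers given above fell over the same ages, with 12 of 12 called lower in adult against fetal cells (35.5% of all genes). Of the 12, 5 had at most 3 counts in every adult library. Those 5 entered the tests through their fetal and neonatal libraries, so nothing is read from that count. Mki67 was at 188.9 ± 66.1 CPM in fetal and 128.5 ± 12.7 in adult cells (log2 fold change -0.56, edgeR adjusted p = 0.0338). The Mki67 call missed the threshold when any 1 neonatal library, or adult replicate 1 or 2, was left out, and with only the 2 ages in the fit (edgeR adjusted p = 0.0714). Its log2 fold change was -0.23 without fetal replicate 3 (edgeR adjusted p = 0.014). Of 20 proliferation markers, 14 were lower and 0 higher in adult against fetal cells (35.5% and 34.9% of all genes). Their summed level was 2616 CPM in fetal replicate 3, against 1774 and 1758 in fetal replicates 1 and 2.

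The earlier and later steps of the same lists were counted too. Of all genes, 18.0% were lower and 18.3% higher in neonatal against fetal cells, and 31.8% and 31.6% in adult against neonatal cells. Between neonatal and fetal cells, 4 of 14 let-7 processing genes were lower and 1 higher (2 higher without fetal replicate 3), and 9 of 24 reported let-7 targets were lower and 2 higher. Of the 14 IGF2BP client RNAs 4 were lower and 1 higher (2 without fetal replicate 3), and of the 14 ribonucleoprotein partners 7 were lower and 1 higher. The other high mobility group and linker genes had 4 of 12 lower and 2 higher, the reported HMGA targets 1 of 14 lower and 4 higher, and the other RNA-binding protein genes 11 of 32 lower and 3 higher. For the HMGA targets the lower genes numbered 2 without fetal replicate 3. Between adult and neonatal cells, 10 of 14 partners were lower and 0 higher, and 8 of 14 m6A genes were lower and 1 higher. There 6 of 14 let-7 processing genes were lower and 1 higher, and 7 of 14 client RNAs lower and 2 higher. Of the 12 other high mobility group and linker genes, 5 were lower and 2 higher. In the same pair 18 of 32 other RNA-binding protein genes were lower and 7 higher, 8 of 24 let-7 targets lower and 5 higher, and 5 of 14 HMGA targets lower and 4 higher. The last counts of the let-7 and HMGA targets were near the shares of all genes in that pair. The median log2 fold change of the let-7 targets was -0.23 in the earlier step and 0.0012 in the later one, beside -0.01 over all genes in both.

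**Figure D5:**
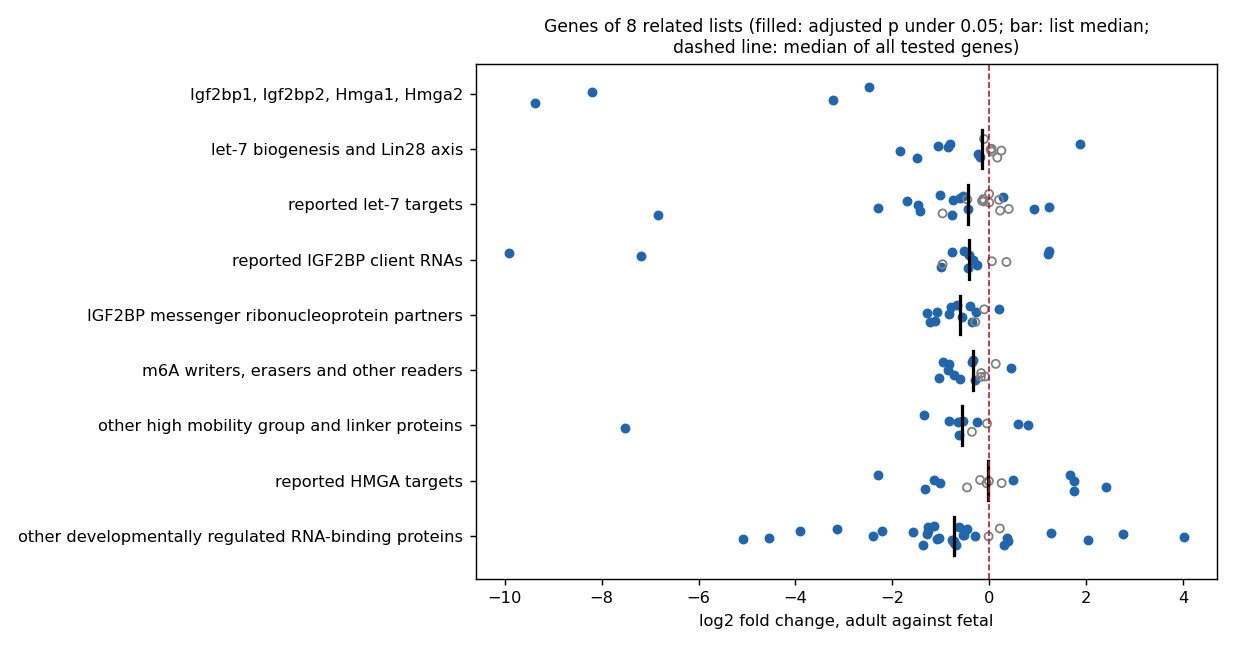
Fitted log2 fold change in adult against fetal cells of the 4 tested genes and of each tested gene of the 8 related lists; filled points passed the threshold, open points did not, bars are list medians, the dashed line is the median of all tested genes, and vertical scatter within a row has no meaning. List medians run from -0.73 for the other RNA-binding protein genes to -0.03 for the reported HMGA targets. Igf2bp1, Hmga2 and Tox3 had at most 3 counts in every adult library. No test is read from their points, nor from those of H19, Plagl1 and Rbm24, which were kept through fetal and neonatal libraries.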

How the data were processed

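The deposited table holds raw gene counts for 9 libraries, 3 per age; the counting program was featureCounts 1.6.3 with an rn6 annotation, per the file headers. The submitters' processing notes also name STAR 2.5.2b and Trimmomatic 0.39. Exon length per gene is another deposited column of that count table. The header's command names no strand option, so reads of antisense partners cannot be told apart.

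The 11337 genes kept by filterByExpr (minimum count 10, by age) entered edgeR 4.0.16 under R 4.3.3 (TMM, robust quasi-likelihood fit of all 9 libraries, age as the only term). Log2 CPM used a prior count of 2. The script was tested on simulated data. The floor was 3 counts per library. Alternatives included DESeq2 1.42.0, other scalings, no filter and leaving out each library.

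The genes and lists were chosen with earlier results of these data known. The text names the 6 listed genes, the 3 nearest genes of each, the 2 genes of each list with the largest change between adult and fetal cells (past the threshold, with 10 CPM or more in the higher age). It also names Lin28b, Igf2, H19, Cd44, Myc, Actb, Dicer1, Dis3l2 and Mki67; the let-7 hairpins were added later. A gene named by the rule for nearest genes is not reported here.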

Additional observations from a re-analysis of the deposited data

How the results depend on the processing

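All calls of Igf2bp1, Igf2bp2 and Hmga2 in the 3 pairs of ages, and those of Hmga1 against fetal cells, kept their direction and side of the threshold under every alternative run. The adult calls of Igf2bp1 and Hmga2 had to follow, so nothing is read from those. The Hmga1 difference between adult and neonatal cells changed sign with library size alone as the scaling (log2 0.0339) and ranged from -0.103 to 0.0246 when 1 library was left out. Its difference between the 2 steps ranged from 1.79 to 2.69, that of Hmga2 from -0.44 to 1.02 and the fitted one of Igf2bp1 from -7.99 to -4.46, when 1 library was left out.

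Library size alone gave 1360 genes higher and 3325 lower in neonatal against fetal cells, against 2074 and 2040 with TMM. A log2 fold change of at least 1 left 657 higher and 615 lower there, 1880 and 1795 in adult against fetal cells, 1455 and 1383 in adult against neonatal cells, and 1165 and 1397 for the difference between the steps. Leaving out 1 library gave 1386 to 2419 genes higher and 1090 to 2260 lower in neonatal against fetal cells, and 1265 to 2612 higher and 1739 to 3273 lower for the difference between the steps. Without neonatal replicate 1, 2 or 3, 1152, 1090 or 1111 genes were lower in neonatal against fetal cells, and 1346, 1265 or 1359 higher for the difference between the steps. Raw counts gave family shares of 68.33% and 82.88% for Igf2bp2 in fetal and neonatal cells and of 80.98%, 93.94% and 99.56% for Hmga1 in fetal, neonatal and adult cells.

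Differences near 0 changed sign for 4 other genes, and the cause was not tested. Hmgn2 in adult against neonatal cells was at 0.00419 with DESeq2, 0.00407 with its size factors, 0.0522 with library size alone and -0.0576 to 0.0257 without 1 library. Actb was at -0.131 and -0.0591 with library size alone against fetal cells (neonatal, adult), at -0.017 without the filter in adult against neonatal cells, and there at -0.0209 to 0.0427 without 1 library. Dis3l2 in neonatal against fetal cells was at -0.0051 with DESeq2, -0.00564 with its size factors, -0.168 with library size alone and -0.0356 to 0.0630 without 1 library. Mki67 in adult against neonatal cells was at -0.133 to 0.00975 without 1 library.

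Replicate numbers did not pair the samples. For each gene, the mean within its age was first subtracted from log2 CPM. What remained in libraries of different ages with the same number had correlations of -0.0649 to 0.0521. With the replicate block, 1948 genes were higher and 1765 lower in neonatal against fetal cells, and no call of the 4 genes changed. Depth limits Lin28a and the adult levels of Igf2bp1 and Hmga2, which were at or below 3 counts.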
